A study of Arabidopsis thaliana with 9 samples.

Results

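The 6 karrikin pathway genes KAI2 (AT4G37470), SMAX1 (AT5G57710), SMXL2 (AT4G30350), DLK2 (AT3G24420), KUF1 (AT1G31350) and BBX20 (AT4G39070) were followed through RNA sequencing of whole Arabidopsis thaliana seedlings. They were taken by locus ID and make up 6 of the 27814 rows of the count table. All 6 passed the filter on low counts, which 21425 genes passed. The study set 2 lines with impaired strigolactone function beside the wild type, with 3 libraries per group. AtCXE15-OE plants overexpress a carboxylesterase gene, atd14-1 plants are mutant in D14, the strigolactone receptor gene, and Col-0 is the wild type. Neither the promoter of the transgene and the number of transgenic lines nor the D14 lesion is stated in the labels. All 3 groups were grown on half-strength MS medium at 22 °C with 16 h light and 8 h dark, without treatment, and were 8 days old by the sample labels or 10 days old by the extraction protocol. No karrikin was applied in any group, so the values are those of untreated seedlings.

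KAI2 is an α/β-hydrolase that perceives karrikins, the butenolides of smoke, and an endogenous ligand that has not been identified. Bound to ligand, it works with the F-box protein MAX2 to mark SMAX1 and SMXL2 for degradation, and loss of these repressors raises transcripts such as DLK2, KUF1 and BBX20. D14, a paralogue of KAI2, uses the same MAX2 to mark SMXL6, SMXL7 and SMXL8, and SMXL2 can also be degraded through D14. In seedlings KAI2 signalling is known for restraining hypocotyl elongation and for promoting cotyledon expansion and root hair growth. The degradation step acts on proteins, which were not measured here.

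The upstream sequences of the 3 transcripts used as readouts of the pathway are shown because transcription of these genes is what responds when SMAX1 and SMXL2 are removed. Each is the window of 250 bases before the annotated gene start in the RefSeq annotation of TAIR10.1, 5′ to 3′ on the strand of the gene, and capitals mark ACGT, the core shared by the binding sequences of many bZIP factors. DLK2 lies at chr3:8862813-8865239 on the minus strand, with its window at chr3:8865240-8865489. KUF1 lies at chr1:11221267-11222827 on the minus strand, with its window at chr1:11222828-11223077. BBX20 lies at chr4:18204631-18206684 on the minus strand, with its window at chr4:18206685-18206934.
DLK2: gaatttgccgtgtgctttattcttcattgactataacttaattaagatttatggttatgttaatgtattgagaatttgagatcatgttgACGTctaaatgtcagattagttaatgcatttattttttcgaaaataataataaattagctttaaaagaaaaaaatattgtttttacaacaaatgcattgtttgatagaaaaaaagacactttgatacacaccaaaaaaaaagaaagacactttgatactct
KUF1: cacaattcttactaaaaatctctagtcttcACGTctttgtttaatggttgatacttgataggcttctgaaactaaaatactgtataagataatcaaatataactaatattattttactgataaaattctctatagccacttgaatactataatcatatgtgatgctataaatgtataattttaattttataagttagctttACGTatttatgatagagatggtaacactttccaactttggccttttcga
BBX20: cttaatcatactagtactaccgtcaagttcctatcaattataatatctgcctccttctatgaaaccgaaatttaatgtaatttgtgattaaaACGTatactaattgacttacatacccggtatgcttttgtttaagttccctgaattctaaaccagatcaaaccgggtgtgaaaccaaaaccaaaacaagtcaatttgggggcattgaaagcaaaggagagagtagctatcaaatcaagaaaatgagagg
Counted back from the gene start, ACGT stood at -161 in DLK2, at -220 and -49 in KUF1 and at -158 in BBX20, and it was not found in the windows of KAI2, SMAX1 and SMXL2. Among 27443 protein-coding promoters of the same length, 44.1% held ACGT on either strand. The G-box CACGTG, which contains ACGT, occurred in 6.49% of all promoters and in 0 of the 6 windows. The element ATAACAA, known to be bound by SMXL6, occurred in 11.6% of all promoters and in 0 of the 6. These are letter matches in short windows and were not tested for binding.

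Library totals ran from 37724263 to 54421069 counts. Levels are given as CPM, which scales counts to library size, adjusted by the trimmed mean of M-values (TMM), and 3 counts corresponded to between 0.0551 and 0.0795 CPM depending on the library. D14 checked the mutant label, with 6.48, 6.81 and 6.92 CPM in atd14-1 and 44.8, 44.8 and 45.3 CPM in Col-0. The overexpressed gene (AT5G06570, CXE15) was at 964, 763 and 739 CPM in AtCXE15-OE and at 3.73 to 4.12 CPM in Col-0; its table row spans many other loci, so its count may hold reads of other genes. The 3 shoot markers summed to at least 7860 CPM in every library, although the table rows of RCA and RBCS1A span many other loci and their counts may hold reads of other genes. Of the 4 root markers PYK10 made up nearly the whole sum, with at least 3800 CPM in every library, while COBL9, IRT1 and NRT2.1 reached at most 15.1, 1.24 and 1.19 CPM. The 3 floral markers AP3, AG and SEP3 summed to 2.55 to 3.44 CPM in AtCXE15-OE, 2.97 to 3.84 CPM in atd14-1 and 3.97 to 4.43 CPM in Col-0, most of it SEP3. The 3 seed markers CRA1, OLEO1 and ECP63 summed to 6.13 to 9.13 CPM in AtCXE15-OE, 8.73 to 13.9 CPM in atd14-1 and at most 2.98 CPM in Col-0, and none was at 0. CRA1, a seed storage protein gene, was called higher in atd14-1 (log2 fold change 2.48, edgeR adjusted p = 0.0141), though not with the replicate number as a block (adjusted p = 0.069), and was not called in AtCXE15-OE (1.89, edgeR adjusted p = 0.113). Of the other markers, RCA was the 1 of 3 shoot genes called in atd14-1 (lower). There 0 of 4 root genes and 0 of 2 tested floral genes were called, beside 11.9% of all genes. In AtCXE15-OE edgeR called no marker, beside 2.27% of all genes. DESeq2 called 1 seed marker there, beside 827 of 24562 genes. The part of residual seed RNA in the results below was not tested.

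The receptor transcript KAI2 was not called in either line. Its libraries measured 62.6, 70.2 and 63.7 in AtCXE15-OE, 65.9, 65.0 and 74.0 in atd14-1, and 57.8, 61.6 and 67.1 CPM in Col-0. The ranges of the groups overlapped. Against Col-0, the log2 fold change was 0.07 ± 0.07 (SE) in AtCXE15-OE and 0.13 ± 0.07 in atd14-1 (edgeR quasi-likelihood test with Benjamini-Hochberg adjustment over all tested genes, adjusted p = 0.743 and 0.272). The 95% confidence intervals ran from 0.947-fold to 1.17-fold in AtCXE15-OE and from 0.988-fold to 1.22-fold in atd14-1. In whole seedlings, fewer cells of a type and less RNA per cell cannot be told apart.

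Set beside its paralogue per gene length, KAI2 and D14 were close in the plants with an intact D14 gene. Within a library the ratio of KAI2 to D14 in CPM per kb was 1.28 ± 0.109 (SD, n = 3) in AtCXE15-OE, 8.82 ± 0.498 in atd14-1 and 1.20 ± 0.0824 in Col-0. The higher ratio in atd14-1 came with the lower D14 level, which averaged 5.91 CPM per kb there and 39.5 in Col-0, while KAI2 averaged 52.2 and 47.5 CPM per kb in the same groups. MAX2, the F-box gene that both receptors need, averaged 48.0 ± 3.10 CPM in AtCXE15-OE, 44.1 ± 1.79 CPM in atd14-1 and 48.2 ± 3.11 CPM in Col-0 (SD, n = 3 each) and was not called in either line (log2 fold changes -0.01 and -0.13, adjusted p = 0.99 and 0.282, edgeR). The MAX2 row overlaps 6 other rows of the table.

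SMAX1, the main repressor removed through KAI2, was lowest in atd14-1, by a margin that did not pass the test. Its libraries measured 137, 165 and 163 in AtCXE15-OE, 132, 142 and 144 in atd14-1, and 156, 161 and 152 CPM in Col-0. All 3 atd14-1 libraries lay below all 3 Col-0 libraries, and AtCXE15-OE replicate 1 lay with the atd14-1 libraries while its other replicates lay above every Col-0 library. The log2 fold change in atd14-1 was -0.17 ± 0.07, with an interval from 0.806-fold to 0.986-fold, and did not pass the test (edgeR adjusted p = 0.143, unadjusted p = 0.0281). In AtCXE15-OE it was -0.01 ± 0.07, with an interval from 0.896-fold to 1.10-fold (edgeR adjusted p = 0.968). SMAX1 passed in atd14-1 when only the 6 libraries compared were fitted (-0.17, edgeR adjusted p = 0.037), and it was at -0.09 (adjusted p = 0.461) with library size as the only scaling.

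SMXL2, the closest relative of SMAX1 and its partner in repression, was lower per gene length than SMAX1 in every library. Its libraries measured 40.3, 38.6 and 34.7 in AtCXE15-OE, 39.3, 39.3 and 37.1 in atd14-1, and 39.7, 40.5 and 42.2 CPM in Col-0. The atd14-1 libraries lay just below the Col-0 libraries without overlap, and the AtCXE15-OE range overlapped that of Col-0. The log2 fold changes of -0.11 ± 0.07 in AtCXE15-OE and -0.08 ± 0.07 in atd14-1 did not pass the test (adjusted p = 0.561 and 0.509, edgeR). Within a library, SMAX1 exceeded SMXL2 by a ratio in CPM per kb of 3.50 ± 0.563 in AtCXE15-OE, 3.08 ± 0.219 in atd14-1 and 3.26 ± 0.174 in Col-0 (SD, n = 3 each), and these ranges overlapped.

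DLK2, a homologue of D14 and KAI2 that is widely used as a transcript marker of KAI2 and D14 signalling, was not called in either line. Its libraries measured 5.45, 5.17 and 5.23 in AtCXE15-OE, 4.31, 5.60 and 5.47 in atd14-1, and 4.39, 4.68 and 4.88 CPM in Col-0. All AtCXE15-OE libraries lay above all Col-0 libraries, and atd14-1 held both the lowest and the highest library of the 9. The log2 fold changes of 0.18 ± 0.14 in AtCXE15-OE and 0.14 ± 0.14 in atd14-1 did not pass the test, and their intervals ran from 0.917-fold to 1.41-fold and from 0.891-fold to 1.37-fold (adjusted p = 0.669 and 0.616, edgeR).

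KUF1 encodes an F-box protein that limits KAI2 signalling. Its libraries measured 11.4, 13.1 and 11.5 in AtCXE15-OE, 12.3, 11.1 and 10.5 in atd14-1, and 12.9, 11.9 and 11.7 CPM in Col-0, with overlapping ranges. The log2 fold changes were -0.02 ± 0.10 in AtCXE15-OE and -0.11 ± 0.10 in atd14-1 (adjusted p = 0.963 and 0.594, edgeR), and the intervals ran from 0.844-fold to 1.15-fold and from 0.797-fold to 1.08-fold. The KUF1 row overlaps 2 other rows of the table, so some of its reads may have been assigned elsewhere.

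BBX20, a B-box transcription factor that promotes photomorphogenesis, had the lowest level per gene length and the widest relative spread of the 6. Its libraries measured 2.59, 1.86 and 2.36 in AtCXE15-OE, 1.29, 2.38 and 2.47 in atd14-1, and 2.17, 3.29 and 3.00 CPM in Col-0. The lowest library rested on 50 counts in atd14-1 (replicate 1) and on 92 in Col-0. In each line the libraries overlapped those of Col-0. The coefficient of variation was 16.4% in AtCXE15-OE, 32.1% in atd14-1 and 20.6% in Col-0, against a counting error of 9.55%, 10.1% and 9.31% and a median over all tested genes of 8.27%, 7.08% and 7.85%. The counting error takes reads as independent. Odd numbers made up 62.9% of the deposited values from 3 to 12, for a reason not stated in the labels, and 50.2% from 50 to 132, the range of the BBX20 counts. The log2 fold changes of -0.31 ± 0.26 in AtCXE15-OE and -0.45 ± 0.26 in atd14-1 did not pass the test (adjusted p = 0.692 and 0.327, edgeR). Their intervals, from 0.544-fold to 1.19-fold and from 0.493-fold to 1.08-fold, were the widest of the 6 genes. Over 15 alternatives the log2 fold change in atd14-1 ran from -0.61 to -0.22.

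**Figure D1:**
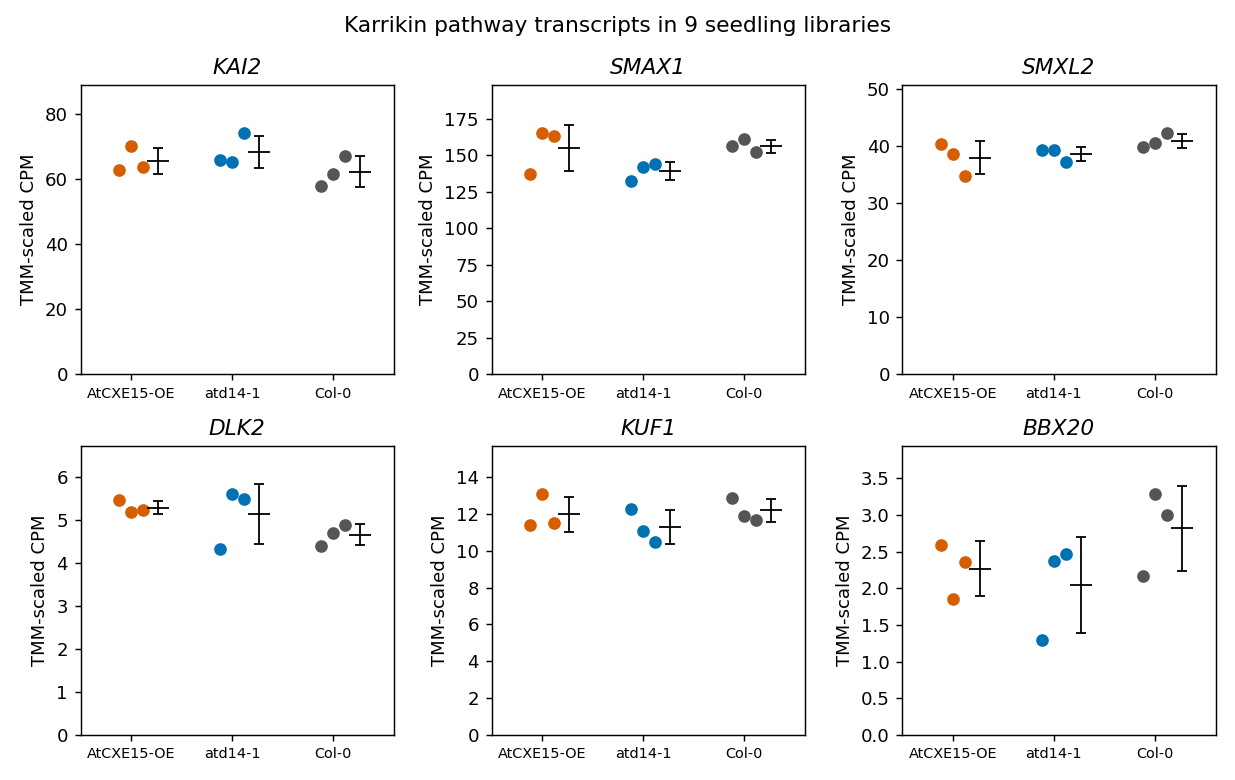
TMM-scaled CPM (y axes, from 0) of the 6 karrikin pathway genes in each library of AtCXE15-OE, atd14-1 and Col-0; points are libraries, and bars beside them are the mean ± SD (n = 3). SMAX1 is lower in all 3 atd14-1 libraries than in Col-0, DLK2 is higher in all 3 AtCXE15-OE libraries than in Col-0, and BBX20 varies most within groups.

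Per gene length the order of mean levels was KAI2, SMAX1, SMXL2, KUF1, DLK2 and BBX20 in each group. In AtCXE15-OE the means were 50.0, 40.7, 11.7, 8.25, 4.70 and 2.20 CPM per kb in that order. In atd14-1 they were 52.2, 36.6, 11.9, 7.80, 4.56 and 1.99, and in Col-0 they were 47.5, 41.1, 12.6, 8.39, 4.14 and 2.73 CPM per kb. Within each group the ranges of neighbouring genes in this order did not overlap. Relative to the levels, the narrowest gap was in Col-0, where the lowest KAI2 value was 44.2 and the highest SMAX1 value 42.2 CPM per kb. The KAI2 to SMAX1 ratio within a library was 1.23 ± 0.0971 in AtCXE15-OE, 1.43 ± 0.0841 in atd14-1 and 1.16 ± 0.111 in Col-0 (SD, n = 3 each). It ran from 1.33 to 1.49 in atd14-1, above the Col-0 range of 1.08 to 1.28, a difference for which no test was run.

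**Figure D2:**
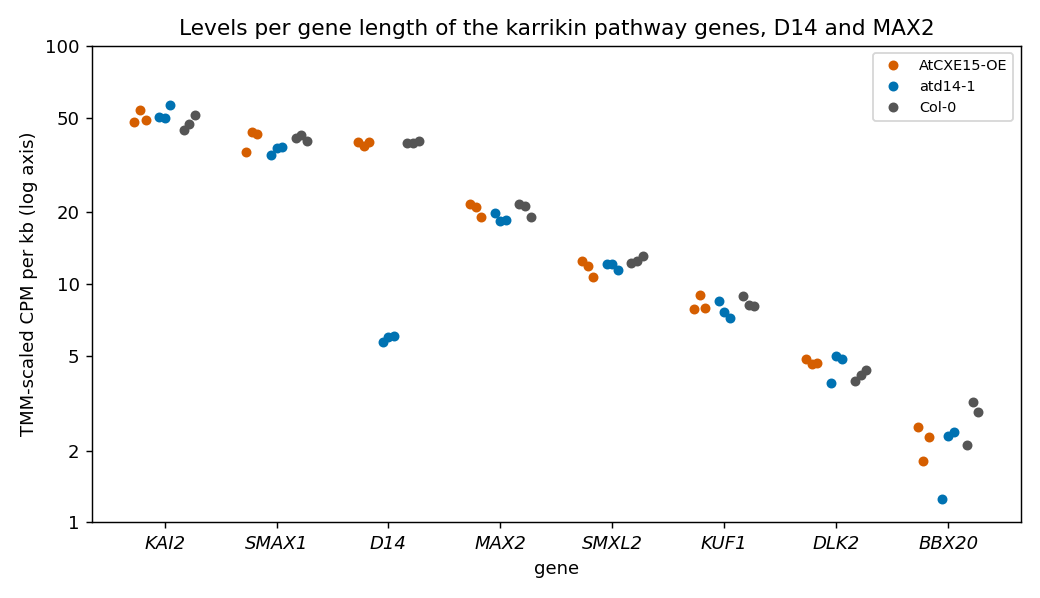
TMM-scaled CPM per kb of gene length (log axis) of the 6 karrikin pathway genes with D14 and MAX2, 1 point per library, for AtCXE15-OE, atd14-1 and Col-0. KAI2 averages 50.0, 52.2 and 47.5 CPM per kb in these groups, and D14 stands apart in atd14-1 at 5.91 CPM per kb.

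Across all genes, 2.27% were called in AtCXE15-OE against Col-0, 11.9% in atd14-1 against Col-0, 6.96% in the mean of both lines against Col-0 and 6.94% in AtCXE15-OE against atd14-1 (edgeR adjusted p under 0.05). Of the 6 karrikin pathway genes, 0 were called in each of the 4 comparisons, and DESeq2 and limma-voom also called 0. At an unadjusted p under 0.05 the counts were 0, 1, 0 and 1 of 6 by edgeR, and the 1 gene was SMAX1 both times; over all genes 12.9%, 24.1%, 19.4% and 20.5% reached that level. With so few members and such shares of all genes called, a count of 0 was near the background in each comparison. The members' median absolute log2 fold change was 0.091 in AtCXE15-OE and 0.138 in atd14-1, beside 0.103 and 0.141 over all tested genes. Libraries did not overlap for DLK2 in AtCXE15-OE, as for 8.93% of all genes in the higher direction, and for SMAX1 and SMXL2 in atd14-1, as for 15.8% in the lower direction. In either direction the shares of all genes were 17.9% in AtCXE15-OE and 31.5% in atd14-1. These counts of 1 and 2 of the 6 members were thus near the background.

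The mean of both lines and the direct comparison of the lines gave no call either. For the mean of AtCXE15-OE and atd14-1 against Col-0, the log2 fold change was 0.10 for KAI2, -0.09 for SMAX1, -0.10 for SMXL2, 0.16 for DLK2, -0.07 for KUF1 and -0.38 for BBX20, with adjusted p between 0.396 and 0.761 by edgeR. In AtCXE15-OE against atd14-1, SMAX1 was at 0.15 with an interval from 0.01 to 0.30 (edgeR adjusted p = 0.22, unadjusted p = 0.0409). Without AtCXE15-OE replicate 1 the same difference was 0.24 and passed the test (edgeR adjusted p = 0.00869). The other 5 genes lay between -0.06 for KAI2 and 0.14 for BBX20. These comparisons share libraries, and their values are set side by side only.

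**Figure D3:**
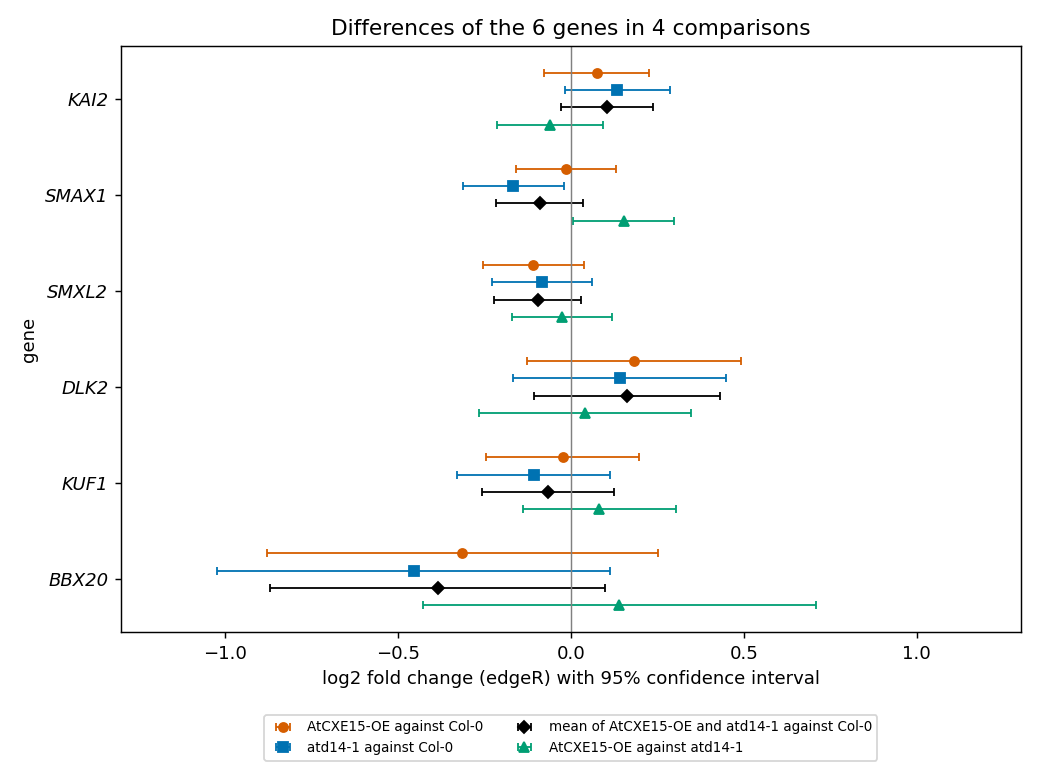
log2 fold changes (x axis) with 95% confidence intervals of the 6 genes in 4 comparisons by edgeR: AtCXE15-OE against Col-0, atd14-1 against Col-0, the mean of both against Col-0, and AtCXE15-OE against atd14-1. Only the SMAX1 intervals in atd14-1 against Col-0 and in AtCXE15-OE against atd14-1 leave out 0, and neither passes after adjustment; the BBX20 intervals are the widest.

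Around the receptor, the list held MAX2, its complex partners ASK1 and CUL1, and the corepressors TPL and TPR1 to TPR4, which SMXL proteins recruit. In either line 0 of 8 were called, beside 2.27% of all genes in AtCXE15-OE and 11.9% in atd14-1. The member with the smallest p was TPR2, at 116 ± 2.39 CPM in AtCXE15-OE, 116 ± 0.855 CPM in atd14-1 and 104 ± 4.74 CPM in Col-0 (SD, n = 3 each). Its log2 fold changes were 0.16 and 0.15 (adjusted p = 0.134 and 0.0634, edgeR). In the mean of both lines TPR2 was the 1 of 8 called (0.15 ± 0.04, edgeR adjusted p = 0.0422), beside 6.96% of all genes. The call was lost in 7 of 17 alternatives, each of them leaving out 1 library, with adjusted p up to 0.185. In AtCXE15-OE against atd14-1, 0 of 8 were called, beside 6.94% of all genes, and MAX2 had the smallest p (0.12, edgeR adjusted p = 0.347).

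Of D14 and SMXL3 to SMXL8, 2 of 7 fell in AtCXE15-OE, beside 1.51% of all genes called lower. SMXL6, a target of D14, averaged 43.6 ± 1.15 CPM in AtCXE15-OE, 38.5 ± 2.05 CPM in atd14-1 and 53.2 ± 1.16 CPM in Col-0. In atd14-1, D14 and SMXL6 fell, beside 6.87% of all genes called lower. SMXL5, a relative that acts in phloem formation, rose there, beside 5.06% of all genes called higher. It averaged 47.8 ± 2.99 CPM in atd14-1, against 36.6 ± 3.63 CPM in Col-0 (log2 fold change 0.39 ± 0.11, edgeR adjusted p = 0.0335). The SMXL5 call was lost in 6 of 15 alternatives, among them limma-voom and the fits without Col-0 replicate 2 or 3 or without atd14-1 replicate 1 or 2 (log2 fold changes from 0.30 to 0.46, adjusted p up to 0.119). The SMXL6 call held in all 15 alternatives in atd14-1 (-0.47, edgeR adjusted p = 0.000144) and was lost in 5 of 15 in AtCXE15-OE (-0.29, edgeR adjusted p = 0.0203), without any 1 Col-0 library or AtCXE15-OE replicate 2 or 3. SMXL7, another target of D14, was the other gene that fell in AtCXE15-OE (-0.24, edgeR adjusted p = 0.0397), a call lost in 8 of 15 alternatives. In atd14-1 SMXL7 was at -0.18 and was not called (edgeR adjusted p = 0.0561). Between the lines its log2 fold change was -0.06 (edgeR adjusted p = 0.604). SMXL8, also a target of D14, was at -0.27 in AtCXE15-OE and at 0.07 in atd14-1, and was called in neither (adjusted p = 0.23 and 0.732, edgeR). In atd14-1 D14 itself is the mutated gene, so its fall is a check and not a response. In the mean of both lines D14, SMXL6 and SMXL7 were called lower, beside 4.37% of all genes called lower. For D14 this rested on atd14-1, since D14 was at -0.01 in AtCXE15-OE (edgeR adjusted p = 0.96). The SMXL7 call in the mean was lost when TMM was left out, without Col-0 replicate 1 and without Col-0 replicate 2 (adjusted p up to 0.0985). In AtCXE15-OE against atd14-1 only D14 of the 7 was called, higher (2.72, edgeR adjusted p = 8.04e-12), which is again a check of the mutant. None of SMXL3 to SMXL8 was called there, beside 6.94% of all genes.

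A further list held 7 other transcripts known to respond to karrikins in Arabidopsis, GA3OX1, GA3OX2, IAA1, HY5, CHS, CAB3 and ACS7. In AtCXE15-OE 0 of 7 were called, beside 2.27% of all genes. IAA1, an auxin response repressor gene, had the smallest p there (-0.20, edgeR adjusted p = 0.581). In atd14-1, 1 of 7 was called, near the 11.9% of all genes called there: CAB3, a chlorophyll a/b-binding protein gene, fell to 1570 ± 12.1 CPM, against 2570 ± 259 CPM in Col-0 (log2 fold change -0.71 ± 0.07, edgeR adjusted p = 1.78e-05). CAB3 has near-identical copies, so reads may have been split among them. CAB3 was also the 1 of 7 called in the mean of both lines (-0.41, edgeR adjusted p = 0.000716), beside 6.96% of all genes. That call rested on atd14-1, since CAB3 was at -0.10 in AtCXE15-OE (edgeR adjusted p = 0.622). In AtCXE15-OE against atd14-1 CAB3 was again the 1 of 7 called (0.61, edgeR adjusted p = 0.000212), beside 6.94% of all genes. HY5, a bZIP factor of light signalling that works with BBX20, had log2 fold changes of -0.04 in AtCXE15-OE and -0.18 in atd14-1 and was not called (adjusted p = 0.942 and 0.317, edgeR).

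BBX25, BBX24 and BBX18, relatives of BBX20, and HYH, a partner in light signalling, fell in atd14-1, where BBX20 itself was not called. Of 9 listed genes 8 were tested, BBX23 being too low. In atd14-1, 4 of 8 fell and 0 rose, beside 6.87% of all genes called lower. BBX19 (-0.35), BBX21 (-0.08), BBX22 (0.06) and COP1 (-0.11) were not called there (adjusted p from 0.275 to 0.706, edgeR). BBX25, a B-box factor that restrains HY5, averaged 32.7 ± 1.09 CPM in AtCXE15-OE, 25.5 ± 2.29 CPM in atd14-1 and 45.4 ± 0.659 CPM in Col-0 (SD, n = 3 each). It fell in both lines, with log2 fold changes of -0.47 ± 0.07 in AtCXE15-OE and -0.83 ± 0.07 in atd14-1 (adjusted p = 0.00253 and 5.1e-06, edgeR). In AtCXE15-OE, BBX25 was the 1 of 8 called, beside 2.27% of all genes. In AtCXE15-OE against atd14-1, BBX25 was higher by 0.36 (edgeR adjusted p = 0.00827), again the 1 of 8 called, beside 6.94% of all genes.

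The other 3 that fell in atd14-1 were BBX24, HYH and BBX18. In AtCXE15-OE their libraries also all lay below Col-0, with log2 fold changes of -0.19, -0.25 and -0.17. They were not called there (adjusted p = 0.0696, 0.382 and 0.556, edgeR). With BBX25, 4 of 8 lay wholly below Col-0 in AtCXE15-OE, beside 8.93% of all genes in that direction. BBX24, the nearest relative of BBX25, averaged 180 ± 2.85 CPM in atd14-1 and 231 ± 12.8 CPM in Col-0 (log2 fold change -0.36, edgeR adjusted p = 0.000264). HYH, the homologue of HY5, averaged 10.1 ± 0.959 CPM in atd14-1 and 14.9 ± 2.01 CPM in Col-0 (-0.57, edgeR adjusted p = 0.00509). BBX18, which restrains photomorphogenesis and is named although it lies outside the rule of 3 genes per list, averaged 11.2 ± 1.52 CPM in atd14-1 and 15.5 ± 1.07 CPM in Col-0 (-0.47, edgeR adjusted p = 0.0106). These 4 atd14-1 calls and the BBX25 calls in AtCXE15-OE and between the lines held in all 15 alternatives run on each. The rows of BBX24 and BBX25 overlap 3 and 2 other rows of the table, and that of SMXL6 overlaps 4. In the mean of both lines BBX25, BBX24 and HYH were called lower, beside 4.37% of all genes called lower. The HYH call in the mean was lost without Col-0 replicate 1 or without Col-0 replicate 2 (adjusted p up to 0.151). The summed seed markers were higher in atd14-1 than in Col-0 in the same libraries. The shoot marker RCA, whose table row overlaps 343 others, was lower there (log2 fold change -0.41). The other shoot markers RBCS1A (0.18) and CAB2 (-0.55) were not called in atd14-1 (adjusted p = 0.873 and 0.755, edgeR). The part of seed and shoot content in the result was not tested. The harvest hour is not given in the sources used here and its part was not tested.

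**Figure D4:**
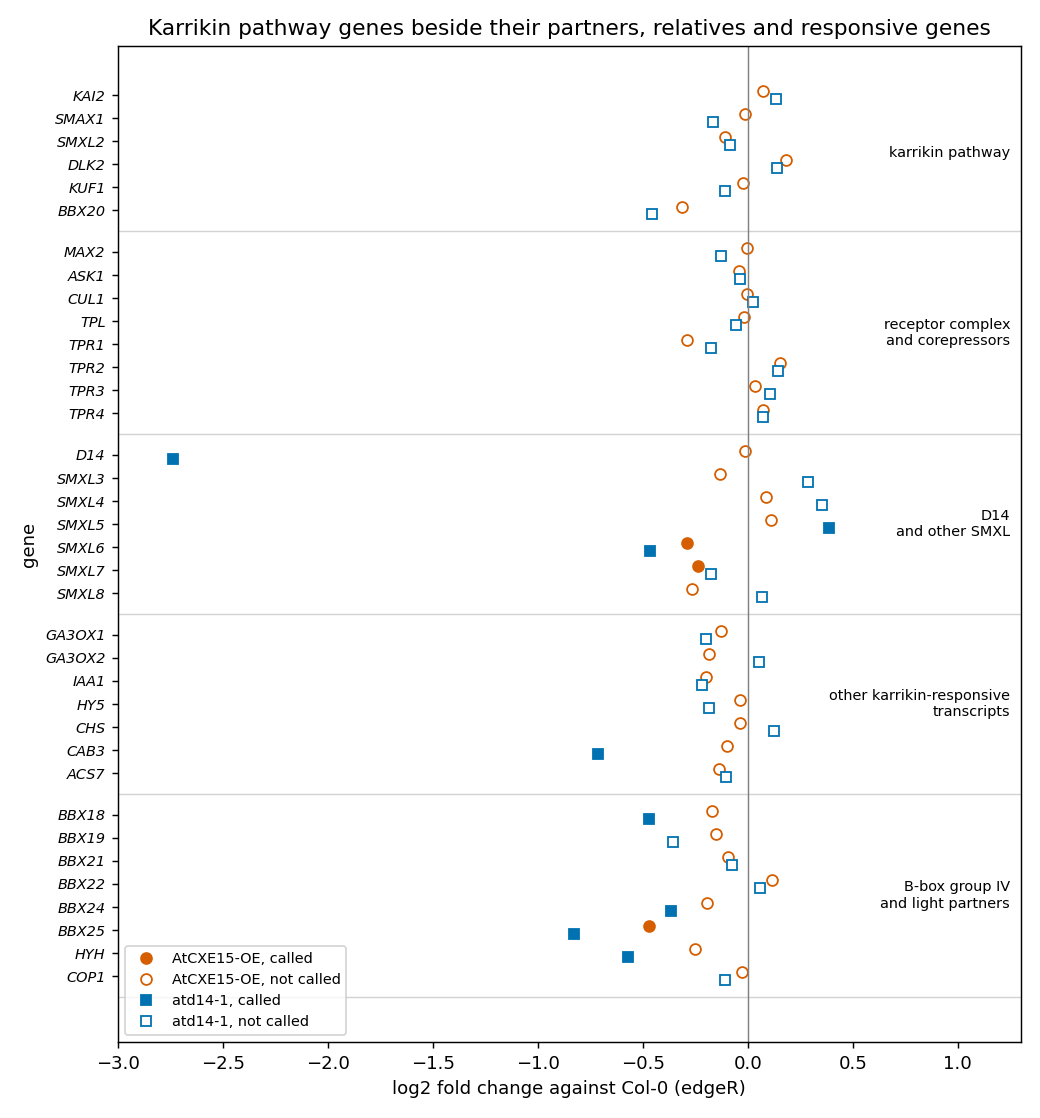
log2 fold changes against Col-0 by edgeR (x axis) of the karrikin pathway genes and 4 related lists; circles are AtCXE15-OE, squares are atd14-1, and filled symbols are calls at an adjusted p under 0.05. The 6 karrikin pathway genes have open symbols throughout, while D14 at -2.74, CAB3 at -0.71 and BBX25 at -0.83 are filled in atd14-1.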

How the data were processed

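Polyadenylated RNA of whole seedlings was sequenced in 9 libraries. The authors deposited 1 table of raw counts per gene, not normalized; per the submitters' processing notes the build was TAIR10 and the tools included HISAT2, SAMtools 0.1.18, Picard and DESeq 1.39.0. How reads were counted, including strand and multiply mapped reads, is not given in the sources used here. Library preparation did not mark strand, per the labels' protocols. Groups came from the labels. Whether libraries of a group are separate cultures is unstated, so a p-value reflects only the spread among these libraries, part of which may be technical. No 2 libraries of a group agreed within sampling noise.

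In R 4.3.3, edgeR 4.0.16 (filterByExpr, TMM, robust quasi-likelihood fit) was run once on all 9 libraries with 4 contrasts. Benjamini-Hochberg adjustment covered 21425 genes, with a threshold of 0.05. Standard errors are the log2 fold change over the root of F, and intervals are at 95%; both are approximate. DESeq2 1.42.0, limma 3.58.1 (voom), other scalings and filters, a replicate block and leaving out each library were alternatives. The fit was tested on simulated counts. CPM per kb used the length in the table. The RefSeq annotation of TAIR10.1 held 26694 of the locus IDs; no row ended beyond its chromosomes there, and 4700 rows had the annotated start and end. DLK2 has no symbol in that annotation and SMAX1, SMXL2 and BBX20 stand there as synonyms or under another symbol. Upstream sequences were read from the TAIR10.1 genome of RefSeq.

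The members and lists were chosen with earlier results of these data known. Named were all 6 members, D14, MAX2 and, per other list and comparison, up to 3 called genes with the smallest adjusted p or, with none called, the 1 with the smallest. For each member the 2 genes with the highest Pearson r of log2 CPM (prior count 2) over the 9 libraries were also named, among 8710 tested genes with an annotated symbol and a mean of at least 1 CPM. Marker lists covered shoot, root, seed and floral organs.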

Additional observations from a re-analysis of the deposited data

How the results depend on the processing

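Across 372 values of the 6 karrikin pathway genes under an alternative, 358 kept their direction and their side of the threshold, 12 changed sign and 2 passed the threshold; the cause was not tested. With library size as the only scaling, log2 fold changes in AtCXE15-OE against Col-0 turned to 0.01 for SMAX1, 0.00 for KUF1, 0.01 for D14 and 0.02 for MAX2, and DLK2 in AtCXE15-OE against atd14-1 turned to -0.01. That scaling moved the share of calls that were higher to 44.5% in AtCXE15-OE (33.5% with TMM), 69.8% in atd14-1 (42.4%), 61.4% in the mean of both lines (37.2%) and 34.2% between the lines (59.4%). DESeq2 called 827 genes in AtCXE15-OE against 487 by edgeR. With only the 6 libraries compared, 1 member (SMAX1, -0.17, adjusted p = 0.037) was called in atd14-1.

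Leaving out 1 library, the genes called ranged from 287 to 586 in AtCXE15-OE, from 1704 to 1917 in atd14-1, from 981 to 1710 in the mean of both lines and from 769 to 2216 in AtCXE15-OE against atd14-1. Members called stayed at 0, except for a range of 0 to 1 in AtCXE15-OE against atd14-1 (SMAX1 at 0.24 without AtCXE15-OE replicate 1). In AtCXE15-OE against Col-0, signs turned within -0.06 to 0.07 for SMAX1, -0.09 to 0.02 for KUF1, -0.02 to 0.00 for D14 and -0.06 to 0.05 for MAX2. In AtCXE15-OE against atd14-1 they turned within -0.11 to 0.00 for KAI2, -0.07 to 0.03 for SMXL2, -0.07 to 0.11 for DLK2 and -0.10 to 0.29 for BBX20.

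DESeq2 called 827 of 24562 genes in AtCXE15-OE, among them 2 of 8 B-box list genes (1 by edgeR) and 1 of 3 seed markers (0). Between the lines it called 1194 genes higher and 903 lower, beside 882 and 604 by edgeR. Among them were 3 of 7 genes of D14 and SMXL3 to SMXL8 (1) and 2 of 7 karrikin-responsive genes (1). It also called 2 of 8 B-box list genes (1) and 1 of 4 root markers (0) there. The stricter filter called 2 of 7 genes of D14 and SMXL3 to SMXL8 between the lines (1), beside 882 genes higher and 635 lower.

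Over all tested genes, libraries with the same replicate number did not deviate together (correlations from -0.049 to 0.043 in 9 pairs, and from -0.071 to 0.072 in 18 pairs with different numbers). A correlation over all genes can miss a deviation shared by few genes, so this does not settle whether the numbers pair the libraries. With the replicate block 461, 2576, 1540 and 1561 genes were called in AtCXE15-OE, atd14-1, the mean of both lines and AtCXE15-OE against atd14-1, and 0 members in each. BBX20 had the fewest counts of the 6 genes, 50 to 132 per library in atd14-1, and a spread between libraries above its counting error.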

Other observations

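For each karrikin pathway gene, the 2 genes with the most similar levels over the 9 libraries are given as a description. The libraries share their groups and their scaling, and with 8710 candidate genes high values are to be found for any gene. KAI2 was closest to GAPC2 (Pearson r = 0.95, Spearman rho = 0.95), a cytosolic glyceraldehyde-3-phosphate dehydrogenase gene, and to PDC2 (0.93 and 0.93), a pyruvate decarboxylase gene. SMAX1 was closest to BZIP60 (r = 0.99, rho = 0.95), a transcription factor gene of the unfolded protein response, and to RMA1 (0.97 and 0.98), a RING-type ubiquitin ligase gene. SMXL2 was closest to AtPOT1b (r = 0.95, rho = 0.98) and to AT3G50110, which the annotation names PEN3 (0.92 and 0.88). DLK2 was closest to EB1a (r = 0.97, rho = 0.98), a microtubule end-binding protein gene, and to ABCG30 (0.94 and 0.97), a transporter gene. KUF1 was closest to CRK13 (r = 0.92, rho = 0.97) and AMI1 (0.88 and 0.87), and BBX20 to NodGS (r = 0.89, rho = 0.70) and ABCB27 (0.89 and 0.73). For BBX20 the rank correlation was lower than Pearson's r for both genes. The DLK2 to KAI2 ratio in CPM per kb within a library was 0.0943 ± 0.00794 in AtCXE15-OE, 0.0875 ± 0.0121 in atd14-1 and 0.0872 ± 0.00221 in Col-0 (SD, n = 3 each), and these ranges overlapped.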
